A study of Homo sapiens with 12 samples.

Results

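The let-7 family guide strands were followed through small RNA libraries of PANC-1 and AsPC-1 cells, which model pancreatic ductal adenocarcinoma (PDAC). They comprise the 5p arms of let-7a, let-7b, let-7c, let-7d, let-7e, let-7f, let-7g and let-7i and that of miR-98, chosen by name, which makes 9 of the 1733 miRNAs listed in at least 1 library. All 9 were counted in each of the 12 libraries, and all 9 passed the filter on low counts in each comparison. Both lines are established human cell lines, AsPC-1 from ascites of a patient with PDAC and PANC-1 from a primary pancreatic tumor. AsPC-1 cells were grown in RPMI medium and PANC-1 cells in DMEM, both with fetal bovine serum, so that line and medium cannot be told apart. Each line gave 3 control libraries and 3 libraries of cells transfected with siRNA against MYEOV, the gene named for its overexpression in myeloma, and each knockdown group may hold a pair of different siRNAs. The controls are titled wild type and described as untreated in the labels, whereas the methods name a negative-control siRNA, so that transfection itself may or may not be part of the contrast. The labels give a harvest 48 h after transfection and the methods an earlier one. MYEOV, LIN28 and the let-7 host transcripts are not measured in these libraries.

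MiRNAs are cut from hairpin precursors by Drosha and Dicer, and 1 of the arms, the guide strand, is loaded into an Argonaute protein and pairs with mRNAs through its seed, bases 2 to 8. The let-7 family is low in stem cells and high in differentiated cells, and its known targets include RAS genes, HMGA2, LIN28B and MYC. LIN28 proteins bind the loop of let-7 precursors and block their processing, and MYC represses several let-7 transcripts, which places the family beside the MYC-centred question of the study.

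The RefSeq mature sequences are shown because the 9 guide strands share a single seed, given in capitals, and differ only by a few bases outside it.
hsa-let-7a-5p: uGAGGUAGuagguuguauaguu
hsa-let-7b-5p: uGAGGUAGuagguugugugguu
hsa-let-7c-5p: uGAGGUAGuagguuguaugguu
hsa-let-7d-5p: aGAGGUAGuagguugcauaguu
hsa-let-7e-5p: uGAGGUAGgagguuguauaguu
hsa-let-7f-5p: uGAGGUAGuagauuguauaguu
hsa-let-7g-5p: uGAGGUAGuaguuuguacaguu
hsa-let-7i-5p: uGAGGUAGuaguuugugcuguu
hsa-mir-98-5p: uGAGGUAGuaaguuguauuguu

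Each is 22 nt long, so levels were compared without a length correction, although the efficiency of adapter ligation differs between sequences and was not calibrated. Positions are counted from 1 at the 5′ end of let-7a, whose base is given first. Let-7c (A19G), let-7e (U9G) and let-7f (G12A) each differ from let-7a at 1 position. Let-7b (A17G and A19G), let-7d (U1A and U16C), let-7g (G12U and U18C) and miR-98 (G11A and A19U) differ at 2 positions, and let-7i differs at 4 (G12U, A17G, U18C and A19U). Let-7a and let-7c are identical up to their difference at position 19, so a read that ends before it does not tell them apart, and the same holds for let-7b and let-7c before position 17. Since the counts hold perfect genome matches, a sequencing error that turns a member into another would also be counted as that other. Of the other miRNAs in RefSeq with this seed, miR-4458 reached at most 2 reads and was listed in 8 libraries, and miR-4500 had 1 read in 1 library. The measured pool with this seed therefore consisted of the 9 members.

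The 9 guide strands come from 12 hairpins on 8 chromosomes, and the positions below are those of the hairpins in GRCh37 with its GENCODE annotation. On chromosome 9, plus strand, MIRLET7A1 (chr9:96938234-96938325), MIRLET7F1 (chr9:96938629-96938715) and MIRLET7D (chr9:96941116-96941202) lie in the lncRNA gene MIRLET7A1HG, each within an exon of at least 1 transcript. On chromosome 22, plus strand, MIRLET7A3 (chr22:46508629-46508702) and MIRLET7B (chr22:46509566-46509648) lie in exons of the lncRNA gene MIRLET7BHG. On the X chromosome, minus strand, MIR98 (chrX:53583184-53583302) and MIRLET7F2 (chrX:53584153-53584235) lie in an intron of HUWE1, a ubiquitin ligase gene. The other hairpins are the only let-7 hairpin at their locus. MIRLET7I (chr12:62997466-62997550, plus strand) lies in an intron of MIRLET7IHG, and MIRLET7G (chr3:52302292-52302379, minus strand) in an intron of WDR82. The remaining loci are those that let-7 shares with the miR-99 and miR-125 families, an arrangement found across bilaterian animals. MIRLET7C (chr21:17912143-17912236, plus strand) follows MIR99A in MIR99AHG, MIRLET7E (chr19:52196039-52196117, plus strand) lies between MIR99B and MIR125A in an intron of SPACA6, and MIRLET7A2 (chr11:122017229-122017301, minus strand) lies with MIR100 in an intron of MIR100HG. Mature let-7a thus sums 3 hairpins and mature let-7f sums 2, and the opposite arms tell some of the copies apart: that of MIRLET7A2 differs from the one that MIRLET7A1 and MIRLET7A3 share, and those of MIRLET7F1 and MIRLET7F2 have separate names.

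The libraries held 3805084 to 7311783 counted reads, and 356252 to 1331301 of them were let-7 reads. The floor was set at a count of 3, or 0.410 to 0.788 CPM (the count scaled to library size). MiR-21-5p, which led in each library, took 17.2% to 19.2% of the AsPC-1 reads and 25.0% to 30.1% of the PANC-1 reads. AsPC-1 control replicate 1 stood apart from the other controls of its line (chi-square per degree of freedom of 224 and 183, against 22.1 between the others), so the knockdown LFCs of the AsPC-1 members are also given without it. Of the markers, the 5 epithelial miR-200 family guides summed to 48678 to 52667 CPM of the counted reads in AsPC-1 controls and to 249.9 to 276.3 in PANC-1 controls, and the acinar markers did not exceed 0.509 CPM in a group. Nothing in the labels says that the replicates came from separate cultures. The paper states at least 3 independent runs for all its experiments, without naming these libraries. The p-values thus measure the spread between these libraries, which may be technical.

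The let-7 pool was larger in AsPC-1 than in PANC-1 and had the members in other proportions. It took 14.2%, 18.6% and 17.9% of all counted reads in the AsPC-1 control libraries and 8.86%, 9.80% and 9.36% in the PANC-1 control libraries (means 16.9% ± 2.37 and 9.34% ± 0.466, SD, n = 3 each). The ranges did not overlap, and the lowest AsPC-1 value was that of control replicate 1, without which the AsPC-1 mean was 18.3%. As the members were chosen with results known, the sum was not tested. In bulk libraries, fewer cells that make a miRNA and less of it per cell cannot be told apart. With miR-21-5p left out of the denominator, the pool took 20.6% of the AsPC-1 and 12.6% of the PANC-1 control reads.

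**Figure D1:**
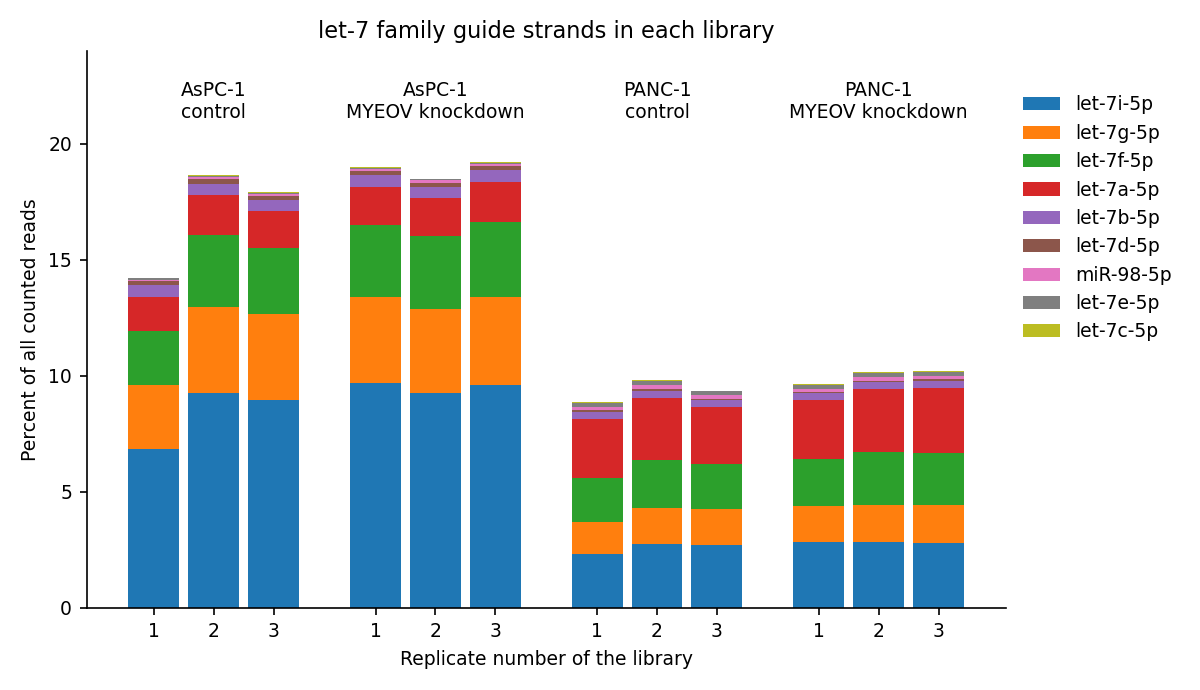
Stacked bars give the percent of all counted reads taken by each let-7 family guide strand (y axis) in each of the 12 libraries (x axis, by group and replicate number). The AsPC-1 bars reach 14.2% to 19.2% and the PANC-1 bars 8.86% to 10.2%, with let-7i as the tallest segment in AsPC-1 and let-7a and let-7i of similar height in PANC-1.

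Let-7i, the product of a single hairpin on chromosome 12, dominated the AsPC-1 pool. It held 48.1%, 49.6% and 50.1% of the let-7 reads in the AsPC-1 control libraries and 26.0%, 28.1% and 29.1% in those of PANC-1. It was the second most abundant of all miRNAs in each of the 6 AsPC-1 libraries, whereas it ranked 6 to 8 in PANC-1. Let-7a, which sums 3 hairpins, showed the reverse order. Its share was 10.3%, 9.19% and 8.93% in AsPC-1 controls and 28.8%, 27.4% and 26.3% in PANC-1 controls. In PANC-1, the shares of let-7a (27.5% ± 1.25) and let-7i (27.7% ± 1.56, SD, n = 3) did not differ beyond their spread. For each member the 95% Wilson interval of a share was within 0.149 percentage points of it. This interval covers counting error only, since PCR copies without molecular identifiers are not independent molecules.

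Let-7g and let-7f made up most of the rest. Let-7g, from the WDR82 intron, held 19.6% to 20.5% of the AsPC-1 pool and 15.9% to 16.4% of the PANC-1 pool. Let-7f, from chromosomes 9 and X, held 15.9% to 16.5% of the AsPC-1 pool and 20.6% to 21.3% of that of PANC-1. The 4 members let-7a, let-7f, let-7g and let-7i together made 94.3% to 95.5% of the AsPC-1 control pool and 92.0% to 92.4% of that of PANC-1. The order of mean shares was therefore let-7i, let-7g, let-7f, let-7a in AsPC-1, and let-7i, let-7a, let-7f, let-7g in PANC-1.

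Among the 5 minor members, let-7b was the largest in both lines, with 2.69% to 3.50% of the pool in AsPC-1 controls and 3.08% to 3.30% in PANC-1 controls, and these ranges overlapped. Let-7d held 0.883% to 1.14% of the AsPC-1 and 0.731% to 0.825% of the PANC-1 pool. Let-7e, from the SPACA6 cluster, differed most in relative terms, with 0.245% to 0.307% in AsPC-1 controls against 1.80% to 1.91% in those of PANC-1. It therefore stood below miR-98 in AsPC-1 (0.540% to 0.587%) and above it in PANC-1 (1.54% to 1.64%). Let-7c was the least abundant member in both lines, at 0.157% to 0.159% in AsPC-1 against 0.353% to 0.444% in PANC-1.

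In levels, 5 members were higher and 3 lower in AsPC-1 than in PANC-1 controls. These 8 of 9 differentially expressed (DE, adjusted p under 0.05) members stand beside 519 of 627 miRNAs (82.8%) that were DE between the lines in edgeR's quasi-likelihood test, so a call as such says little about the family. The higher direction took 36.0% of all miRNAs and the lower one 46.7%. The median log2 fold change (LFC, AsPC-1 over PANC-1) was 0.83 over the members and -0.27 over all miRNAs tested. Levels here are CPM scaled with TMM factors, edgeR's correction for library composition, and the scaling weighed on this comparison. Relative to TMM, library totals alone shifted all LFCs by -0.34 and upper-quartile factors by 0.92, and with upper-quartile factors let-7a and miR-98 turned from lower to higher (LFC of 0.58 and 0.61).

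Let-7i had 75044, 105243 and 101964 CPM in the AsPC-1 controls and 19746, 24512 and 25167 CPM in the PANC-1 controls. Each AsPC-1 library lay far above each PANC-1 library, and in both lines replicate 1 was the lowest. The LFC was 2.02 (SE 0.14, adjusted p = 2.61e-09, edgeR), a 4.07-fold difference, and 2.19 without AsPC-1 control replicate 1. Let-7g had an LFC of 1.52 (SE 0.13, adjusted p = 3.27e-08, edgeR), with 30557 to 42613 CPM in AsPC-1 and 12055 to 14192 CPM in PANC-1. Let-7d had 1773 to 1978 CPM in AsPC-1 and 625.9 to 661.3 CPM in PANC-1, an LFC of 1.53 (SE 0.10, adjusted p = 1.07e-09, edgeR). The groups did not overlap for any of these 3, and their direction held under every scaling tried.

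Let-7b and let-7f differed less. Let-7b had 5459, 5884 and 5480 CPM in AsPC-1 and 2505, 2749 and 2670 CPM in PANC-1 (LFC 1.09, SE 0.09, adjusted p = 3.73e-08, edgeR). Let-7f had 25583, 35043 and 32344 CPM in AsPC-1 and 16163, 18233 and 17869 CPM in PANC-1 (LFC 0.83, SE 0.12, adjusted p = 9.54e-06, edgeR). Both were higher in each AsPC-1 library than in each PANC-1 library, and both stayed higher under every scaling tried.

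Let-7e ran the other way and did so under every scaling tried. It had 479.9, 520.8 and 511.2 CPM in AsPC-1 and 1385, 1573 and 1651 CPM in PANC-1, an LFC of -1.61 (SE 0.10, adjusted p = 1.32e-09, edgeR). The lower level of let-7a in AsPC-1 was smaller and, as above, changed sign with upper-quartile factors. Its 3 libraries held 16018, 19503 and 18169 CPM against 21847, 23841 and 22763 CPM in PANC-1 (LFC -0.35, SE 0.10, adjusted p = 0.00409, edgeR). MiR-98 had 916.1 to 1191 CPM in AsPC-1 and 1237 to 1427 CPM in PANC-1 (LFC -0.32, SE 0.11, adjusted p = 0.0167, edgeR), and it was DE in only 2 of the 6 fits that left out a library. It lost its call without AsPC-1 control replicate 1 or 3 or PANC-1 control replicate 2 or 3, with an adjusted p of up to 0.144, and its LFC was -0.18 without AsPC-1 control replicate 1. Let-7c was not DE (LFC -0.10, 95% interval -0.35 to 0.15, adjusted p = 0.444, edgeR), with 248.8, 333.9 and 318.7 CPM in AsPC-1 and 337.1, 307.9 and 321.1 CPM in PANC-1. Without AsPC-1 control replicate 1 its LFC was 0.0515, with upper-quartile factors it was 0.83, and with library totals it was DE and lower in AsPC-1.

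The opposite arms tell the copy of let-7a on chromosome 11 from the other two, which share an arm. The 3p arm of let-7a-2, cut from the hairpin on chromosome 11, differs from the 3p arm that let-7a-1 and let-7a-3 share, and the pair is printed with the differing bases in capitals.
hsa-let-7a-3p: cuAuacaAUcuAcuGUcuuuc
hsa-let-7a-2-3p: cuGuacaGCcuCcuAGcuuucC

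Let-7a-2-3p had 2.21, 2.71 and 3.26 CPM in AsPC-1 controls and 32.6, 30.8 and 31.8 CPM in PANC-1 controls, from 13 to 21 and from 131 to 175 reads. The LFC of -3.52 (SE 0.20, adjusted p = 4.04e-10, edgeR) was close to that of miR-100-5p, the guide of the neighbouring hairpin in MIR100HG. MiR-100-5p had 8740, 9398 and 9737 CPM in AsPC-1 and 104325, 112182 and 114591 CPM in PANC-1 (LFC -3.57, SE 0.10, adjusted p = 4.72e-14, edgeR). Let-7a-3p, the arm of the copies on chromosomes 9 and 22, had 491.8, 701.9 and 598.1 CPM in AsPC-1 and 513.7, 520.0 and 503.2 CPM in PANC-1. Its groups overlapped and it was not DE (LFC 0.22, 95% interval -0.04 to 0.48, adjusted p = 0.102, edgeR), but without AsPC-1 control replicate 1 it was DE and higher in AsPC-1 (LFC 0.38, adjusted p = 0.00183, edgeR). The difference between these 2 LFCs was not itself tested, but their 95% intervals (-3.96 to -3.09 for let-7a-2-3p) did not overlap.

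Let-7f, the other guide with several copies, has arms that tell chromosome 9 from the X chromosome. Let-7f-1-3p, from the cluster on chromosome 9, had 25.0, 31.6 and 29.8 CPM in AsPC-1 and 3.26, 6.87 and 5.59 CPM in PANC-1 (LFC 2.44, SE 0.23, adjusted p = 1.39e-07, edgeR). Let-7f-2-3p, from the HUWE1 intron, had 25.0, 28.7 and 23.5 CPM in AsPC-1 and 26.9, 28.2 and 27.5 CPM in PANC-1 and was not DE (LFC -0.10, 95% interval -0.41 to 0.22, adjusted p = 0.540, edgeR). Its neighbour miR-98-3p had only 18 to 60 reads in a control library and an LFC of 0.81 (SE 0.25, adjusted p = 0.00759, edgeR), whereas its guide miR-98-5p had an LFC of -0.32, so both arms of this hairpin differed in opposite directions under TMM. With upper-quartile factors the guide was higher in AsPC-1 as well.

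The other members with a single hairpin and both arms tested had LFCs of the same sign in both arms. The guide and opposite arm had LFCs of 1.53 and 1.54 for let-7d, of 1.09 and 1.03 for let-7b, of 2.02 and 2.35 for let-7i and of -1.61 and -1.41 for let-7e. Each of these 4 opposite arms was DE in the edgeR test, with adjusted p-values from 2.74e-09 to 8.05e-05. In all, 9 of the 11 listed opposite arms passed the filter on low counts, of which 5 were higher and 2 lower in AsPC-1, beside 36.0% and 46.7% of all miRNAs tested. Let-7c-3p (0 to 5 reads per library) and let-7g-3p (0 to 11 reads) were not tested.

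The 5 cluster partners were all lower in AsPC-1 controls, where 46.7% of all miRNAs tested were lower. Besides miR-100-5p, miR-99a-5p from the let-7c locus had an LFC of -3.31 and miR-125b-5p, made from chromosomes 11 and 21, one of -2.70. Beside let-7e (LFC -1.61) on chromosome 19, miR-99b-5p had an LFC of -1.58 and miR-125a-5p one of -0.92.

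Let-7c was the exception among the guides of these loci. MiR-99a-5p, cut from the hairpin beside MIRLET7C, had 15.6, 16.4 and 19.9 CPM in AsPC-1 and 167.8, 173.5 and 176.7 CPM in PANC-1 controls (LFC -3.31, SE 0.13, adjusted p = 3.38e-12, edgeR), while let-7c itself had an LFC of -0.10. Counted per 100 reads of let-7a, from which it differs by A19G, let-7c had 1.55 to 1.75 reads in AsPC-1 controls against 1.29 to 1.54 in PANC-1 controls, and 1.81 to 1.92 against 1.42 to 1.59 after knockdown, with the AsPC-1 ranges higher each time. By contrast, let-7e, which differs from let-7a by U9G, had 2.67 to 3.0 reads per 100 over the AsPC-1 libraries and 6.34 to 7.25 over those of PANC-1. What part of the reads counted as let-7c came from let-7a molecules, through short or misread sequences, was not tested. Nor was it tested what part of the miR-99a-5p reads came from molecules of miR-100-5p. MiR-100-5p was far more abundant, with 8740 to 9737 CPM in AsPC-1 and 104325 to 114591 CPM in PANC-1 controls, and had a similar LFC (-3.57).

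**Figure D2:**
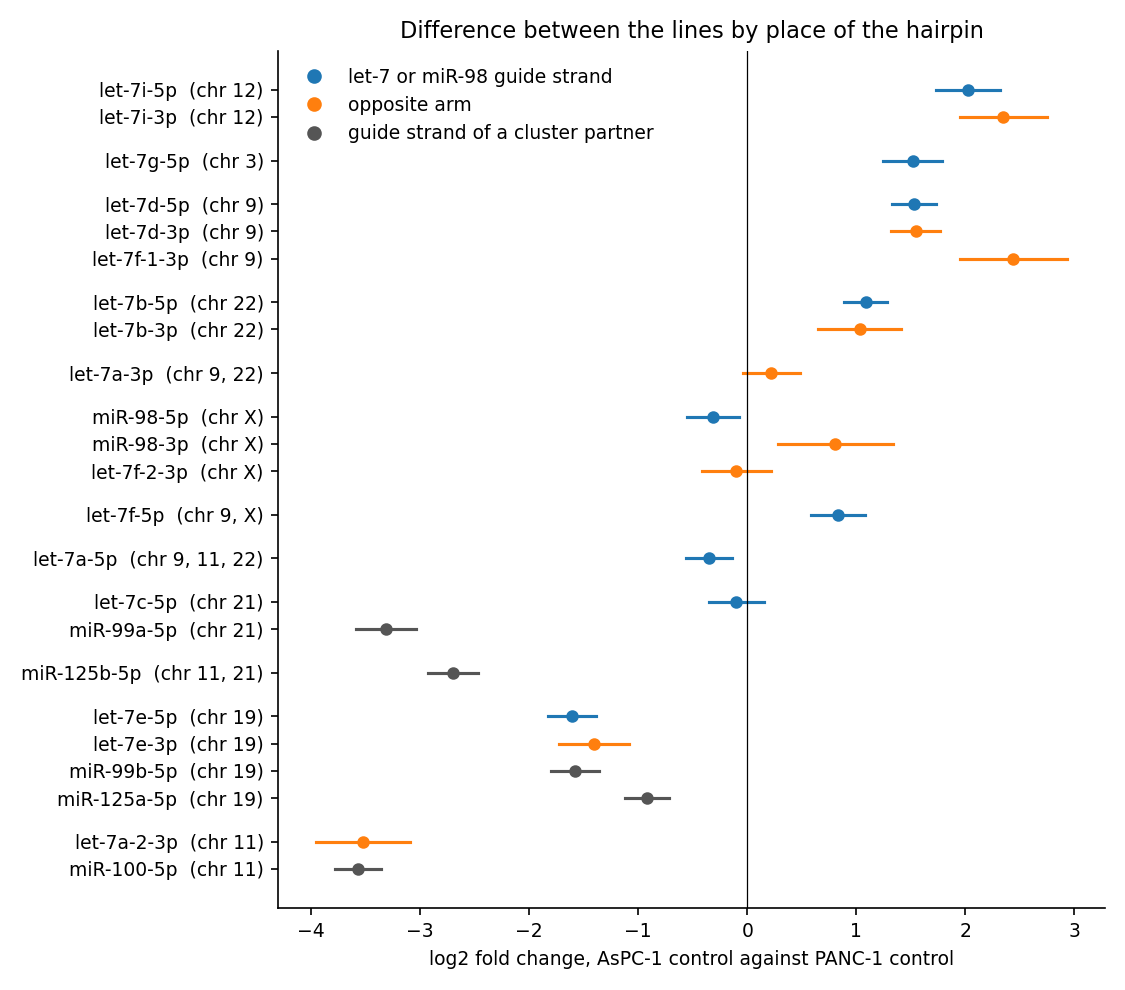
Points give the log2 fold change of AsPC-1 over PANC-1 control libraries (x axis) with its 95% interval from edgeR (n = 3 libraries each) for the let-7 family guide strands, their opposite arms and their cluster partners, ordered by the chromosomes of their hairpins (y axis). Let-7a-2-3p and miR-100-5p from chromosome 11 lie at -3.52 and -3.57, let-7f-1-3p and let-7i-3p lie at 2.44 and 2.35, and let-7c-5p lies at -0.10, away from miR-99a-5p at -3.31.

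The precursors also differ in the motif GGAG, which LIN28 proteins are known to bind in let-7 loops. It was searched on the RNA strand only, in the RefSeq hairpins, and was found in 9 of the 12 family hairpins (75.0%), each time after the guide, and in 678 of all 1562 human hairpins in the table (43.4%), whose lengths vary. The hairpins MIR98, MIRLET7A3 and MIRLET7B do not hold it. The guides of the hairpins without it include let-7b, higher in AsPC-1 by an LFC of 1.09, and miR-98, with an LFC of -0.32, so they lay on both sides of 0 under TMM. So did the guides of hairpins that hold it, with LFCs of 2.02 for let-7i and -1.61 for let-7e. Whether the motif bears on the difference between the lines was not tested.

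In PANC-1 cells, 4 of the 9 let-7 guides rose modestly after MYEOV depletion. Let-7c, let-7f, let-7i and let-7g were DE and higher, by 18.0% to 24.9%, and under TMM the LFC of each of the 9 members was above 0. The 4 of 9 DE members stand beside 121 of 551 miRNAs that were DE in this comparison (22.0%), of which 70 were higher (12.7% of those tested). The median LFC was 0.21 over the members and 0.03 over all miRNAs tested, and 53.7% of all miRNAs had an LFC above 0. Let-7g lay at the threshold, with an adjusted p of 0.04999.

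Let-7c rose from 363.7, 328.4 and 341.8 CPM in the control libraries to 413.1, 446.1 and 432.0 CPM in the knockdown libraries. All 3 knockdown libraries were above all 3 controls. The LFC was 0.32 (SE 0.09, 95% interval 0.15 to 0.49, adjusted p = 0.00713, edgeR). Let-7f, at 17439, 19443 and 19019 CPM in the controls, reached 20723, 23524 and 24453 CPM after knockdown (LFC 0.30, SE 0.09, adjusted p = 0.0180, edgeR). Again the groups did not overlap, with knockdown replicate 1 the lowest of its group. Let-7c and let-7f were each DE in 4 of the 6 fits that left out a library. The adjusted p rose to 0.0661 for let-7c and to 0.114 for let-7f (edgeR).

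Let-7i had 21306, 26139 and 26786 CPM in the controls and 28818, 29554 and 30280 CPM in the knockdown libraries (LFC 0.26, SE 0.09, adjusted p = 0.0461, edgeR). The controls varied more than the knockdown libraries, since control replicate 1 was low. Without that control the LFC of let-7i was 0.15 (adjusted p = 0.226, edgeR), and of the 6 fits that left out a library only the one without control replicate 3 called it. Let-7g had 13008, 14749 and 15105 CPM in the controls and 15945, 16944 and 17668 CPM after knockdown (LFC 0.24, SE 0.09, adjusted p = 0.04999, edgeR), and it was DE in 2 of the 6 fits that left out a library, those without knockdown replicate 1 or control replicate 3. For both, each knockdown library exceeded each control library, and an exact permutation test gave p = 0.1, the smallest that 3 libraries against 3 allow.

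The other 5 members did not pass the threshold in PANC-1. Let-7a had 23572, 25423 and 24228 CPM in the controls and 25905, 28472 and 30376 CPM in the knockdown libraries (LFC 0.21, 95% interval 0.03 to 0.39, adjusted p = 0.0887, edgeR), and of the 6 fits that left out a library it was DE in the one without knockdown replicate 1 (LFC 0.27, adjusted p = 0.0414, edgeR). Let-7b had 2825 ± 115 and 3237 ± 236 CPM (SD, n = 3 each), with an LFC of 0.20 and an adjusted p of 0.0904 (edgeR). The groups of these 2 did not overlap, so that the groups were apart for 6 of 9 members, against 36.7% of all miRNAs tested. Let-7e had an LFC of 0.19 (adjusted p = 0.121, edgeR), let-7d one of 0.08 (adjusted p = 0.519) and miR-98 one of 0.06 (95% interval -0.11 to 0.23, adjusted p = 0.631), and their groups overlapped. When a library was left out, these LFCs ran from 0.11 to 0.25 for let-7e, from 0.05 to 0.10 for let-7d and from 0.0030 to 0.11 for miR-98, with the lowest values of let-7e and miR-98 without control replicate 1 and that of let-7d without control replicate 3.

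The calls in PANC-1 depended on the scaling and on single libraries, although DESeq2's Wald test called the same 4 members. With library totals alone, which shifted all LFCs in this comparison by -0.15, 0 members were DE, let-7d and miR-98 had LFCs below 0, and the members' median was 0.07 against -0.12 over all miRNAs. With DESeq2 size factors, upper-quartile factors, all 12 libraries in 1 fit or no filter, let-7g and let-7i were not DE, and let-7f was not with upper-quartile factors or all 12 libraries, whereas let-7c was DE in each of these fits. With TMM factors from other miRNAs, let-7g missed the threshold (adjusted p = 0.0513, edgeR). Under TMM and library totals each of the 9 members lay above the median of all miRNAs tested, as did 7 without a filter and 8 without control replicate 1. Without knockdown replicate 2, 0 members were DE, without control replicate 2 or knockdown replicate 3 only 1 was, and without control replicate 1 there were 2, while each LFC stayed above 0 in these fits. Some markers of other cell types moved beside these calls, in CPM of the counted reads. The neuronal markers miR-9-5p and miR-124-3p, both detected, summed to 4623 to 4918 in the controls and 3824 to 4066 after knockdown, the islet marker miR-375 stood at 10.3 to 12.1 and 5.54 to 8.65, and the liver marker miR-122-5p at 2.38 to 3.42 and 3.56 to 5.27. Their part in the let-7 values was not tested.

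**Figure D3:**
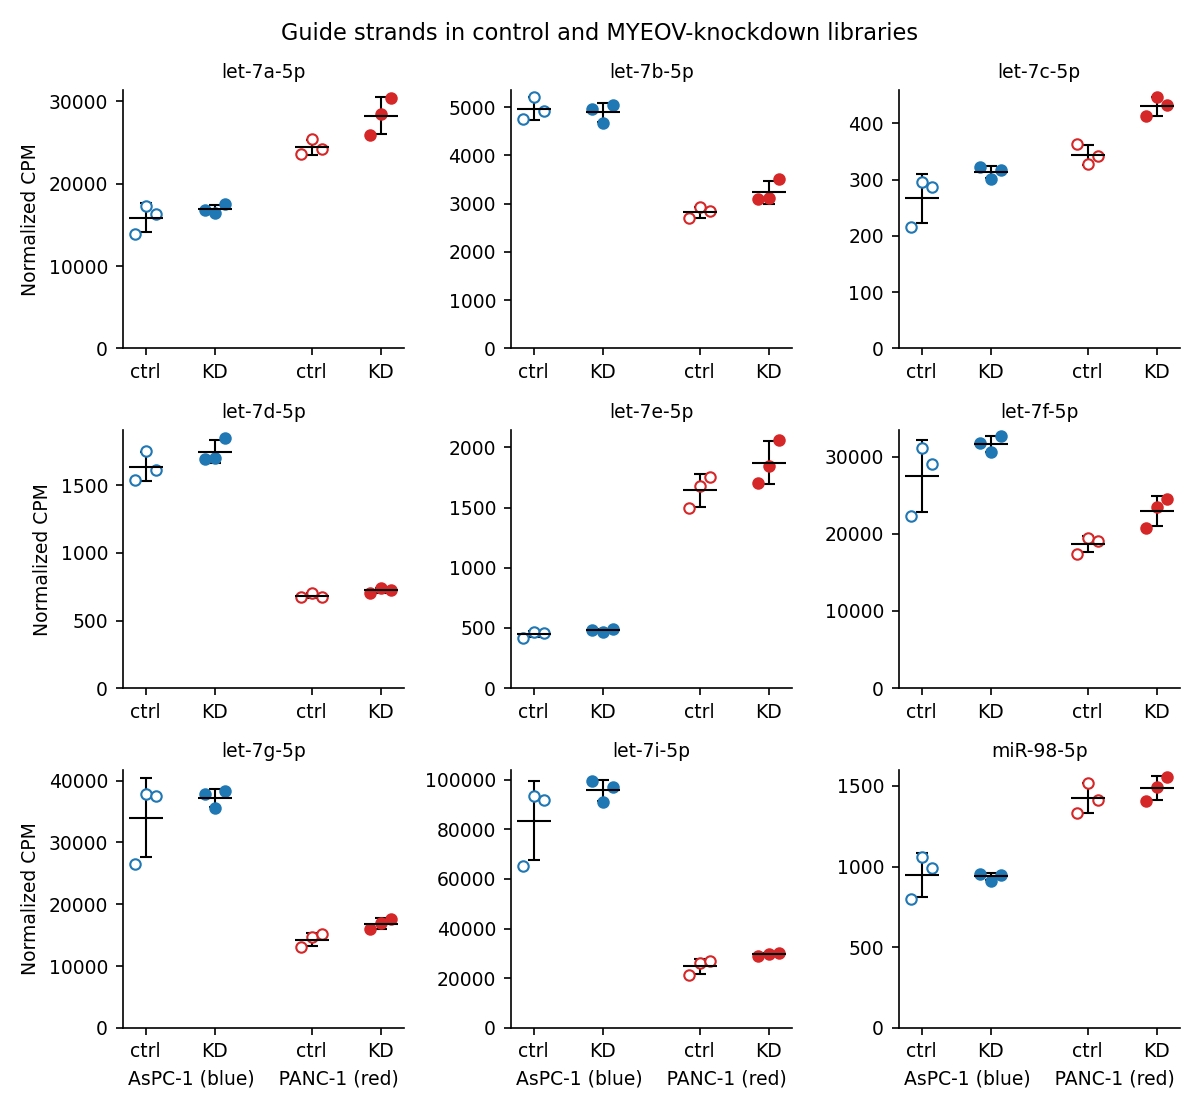
Each panel gives the normalized CPM (y axis, from 0) of a let-7 family guide strand in control (open points) and MYEOV-knockdown (filled points) libraries of AsPC-1 (blue) and PANC-1 (red), with the mean (bar) and SD (n = 3). CPM were scaled within each line, so levels are to be compared within a line. In PANC-1 the groups are apart for let-7a, let-7b, let-7c, let-7f, let-7g and let-7i, and in AsPC-1 control replicate 1 lies below the other 5 libraries for let-7g and let-7i.

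In AsPC-1 cells, no change of a let-7 guide passed the test after MYEOV depletion. EdgeR's quasi-likelihood test called 0 of the 9 members, where 57 of 498 miRNAs were DE (11.4%). An unadjusted p under 0.05 was reached by 1 member, let-7c, and by 24.7% of all miRNAs tested, and DESeq2's Wald test also called 0. The LFC was above 0 for 7 of 9 members and for 49.6% of all miRNAs tested, with medians of 0.10 and -0.0047. The values ran from -0.02 for let-7b to 0.23 for let-7c.

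Let-7c had 216.5, 296.3 and 286.8 CPM in the controls and 322.8, 301.1 and 316.4 CPM in the knockdown libraries (LFC 0.23, 95% interval 0.00 to 0.47, adjusted p = 0.202, edgeR). It was 1 of 2 members whose groups did not overlap, the other being let-7e, against 30.5% of all miRNAs tested. Let-7i had 65299, 93391 and 91764 CPM in the controls and 99253, 90898 and 96817 CPM after knockdown (LFC 0.20, 95% interval -0.05 to 0.44, adjusted p = 0.297, edgeR). Let-7f had an LFC of 0.20 (adjusted p = 0.249) and let-7g one of 0.13 (adjusted p = 0.493). Control replicate 1 was the lowest of all 6 libraries for these 4 members, and without it the LFC was 0.11 for let-7c, 0.05 for let-7i, 0.08 for let-7f and -0.0094 for let-7g.

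The remaining members had smaller LFCs in AsPC-1. Let-7a had 15865 ± 1736 CPM in the controls and 16911 ± 530 CPM in the knockdown libraries (SD, n = 3 each), with an LFC of 0.09 (95% interval -0.09 to 0.28, adjusted p = 0.532, edgeR), or 0.014 without control replicate 1. The LFC was 0.10 for let-7e and 0.09 for let-7d, and without that control 0.06 for both. For let-7b it was -0.02 (95% interval -0.18 to 0.14) and for miR-98 -0.01 (95% interval -0.22 to 0.20), with adjusted p-values of 0.899 and 0.932 (edgeR), and without control replicate 1 these LFCs were -0.046 and -0.12. Without control replicate 1, the median over the members was 0.05, against 0.03 over all miRNAs, and still 0 members were DE among the 102 miRNAs then called.

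**Figure D4:**
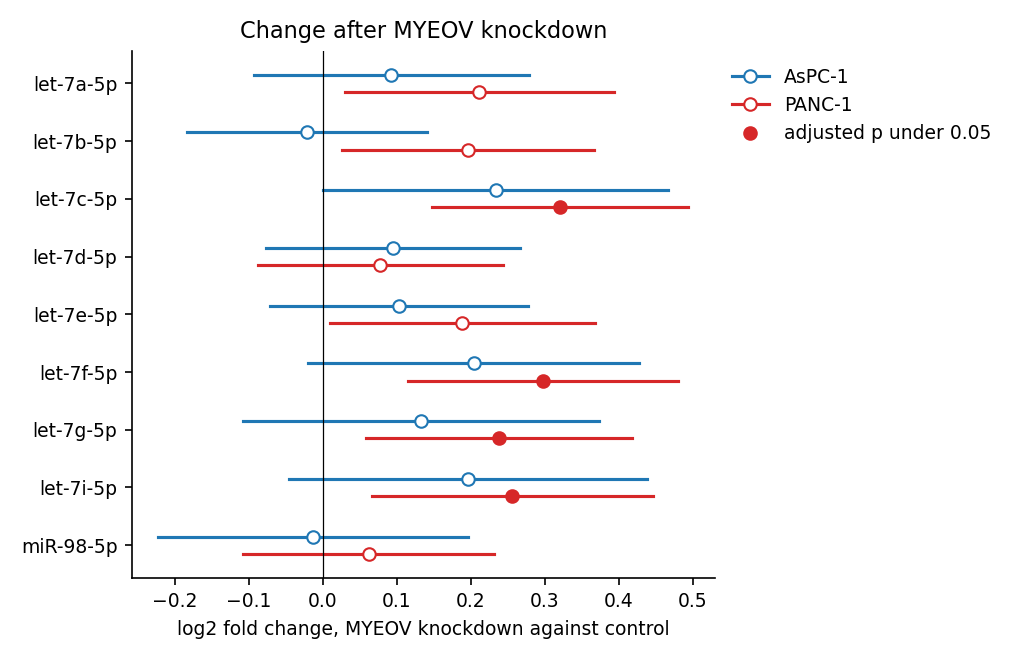
Points give the log2 fold change of MYEOV-knockdown over control libraries (x axis) with its 95% interval from edgeR (n = 3 libraries each) for each let-7 family guide strand (y axis) in AsPC-1 (blue) and PANC-1 (red), filled where the adjusted p was under 0.05. The filled points are let-7c, let-7f, let-7g and let-7i in PANC-1 (0.24 to 0.32), and the AsPC-1 points lie between -0.02 and 0.23.

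The response of the family was not shown to differ between the lines. In a fit over all 12 libraries with an interaction of line and treatment, 0 of 9 members were called by edgeR, where 2 of 650 miRNAs were (0.308%). An unadjusted p under 0.05 was reached by 1 member, let-7b, and by 74 of all miRNAs (11.4%). The difference (AsPC-1 minus PANC-1) was -0.31 for let-7b (95% interval -0.58 to -0.05, adjusted p = 0.301, edgeR) and -0.08 for let-7d, the smallest (95% interval -0.34 to 0.19). All 9 differences were below 0 under TMM, as was the median over all miRNAs (-0.12), of which 36.2% lay above 0, but with library totals 8 of 9 were above 0. The intervals thus leave room for differences of the size of the changes themselves.

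The 5 minor members together took a smaller share of the pool after knockdown. The pool took 19.0%, 18.5% and 19.2% of the counted reads in the AsPC-1 knockdown libraries and 9.65%, 10.2% and 10.2% in those of PANC-1, overlapping the control ranges in both lines. On other denominators the PANC-1 ranges were apart, with 7.17% to 8.20% in the controls and 8.71% to 9.70% after knockdown of the TMM-scaled library size, and 12.1% to 13.1% and 13.3% to 14.6% of the reads other than miR-21-5p. Let-7i kept 49.9% to 51.1% of the AsPC-1 pool and 27.3% to 29.2% of the PANC-1 pool, and let-7a kept 8.66% to 9.05% and 26.2% to 27.4%. The 5 minor members together held 4.34% to 4.46% of the AsPC-1 pool after knockdown, against 4.53% to 5.69% in the controls, and 7.20% to 7.46% of the PANC-1 pool, against 7.63% to 8.02%. The share of miR-98 was lower after knockdown in both lines, with 0.490% to 0.502% against 0.540% to 0.587% in AsPC-1 and 1.40% to 1.43% against 1.54% to 1.64% in PANC-1. Ranges were also apart for let-7b in AsPC-1 (2.56% to 2.60% against 2.69% to 3.50%) and for let-7d in PANC-1 (0.650% to 0.714% against 0.731% to 0.825%), both lower, and for let-7c in AsPC-1 (0.163% to 0.166% against 0.157% to 0.159%), which was higher. For every other member and line the ranges of the share overlapped. In levels, the groups were apart for 30.5% of all miRNAs tested in AsPC-1 and for 36.7% in PANC-1. A share can fall while the level does not, and neither miR-98, let-7b nor let-7d was DE in level in these lines.

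After knockdown, 2 of the 9 opposite arms tested were DE in each line, all of them higher, where 11.4% of all miRNAs tested were DE in AsPC-1 and 22.0% were in PANC-1. Let-7b-3p had 30.6, 46.0 and 32.3 CPM in AsPC-1 controls and 62.6, 55.4 and 53.7 CPM after knockdown (LFC 0.66, SE 0.15, adjusted p = 0.00925, edgeR). In PANC-1 it went from 20.0, 23.1 and 21.0 to 29.9, 36.3 and 38.6 CPM (LFC 0.71, SE 0.15, adjusted p = 0.000790, edgeR). In both lines each knockdown library lay above each control library, whereas the guide let-7b-5p from the same hairpin had LFCs of -0.02 and 0.20 and was not DE. Whether the arms of this hairpin differed in their response was not tested. The other DE arms were let-7f-1-3p in AsPC-1 (LFC 0.51, adjusted p = 0.0207) and let-7a-3p in PANC-1 (LFC 0.34, adjusted p = 0.00370, edgeR). When a library was left out, both PANC-1 calls held in 6 of 6 fits, whereas in AsPC-1 let-7b-3p was DE in 4 of 6 (not without knockdown replicate 1 or control replicate 3, adjusted p up to 0.0586) and let-7f-1-3p in 3 of 6 (not without any one of the knockdown replicates, adjusted p up to 0.112). Over the opposite arms the median LFC was 0.17 for AsPC-1 and 0.23 for PANC-1.

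No cluster partner passed the test after knockdown. EdgeR's test called 0 of 5 in each line, beside DE shares over all miRNAs of 11.4% for AsPC-1 and 22.0% for PANC-1, and DESeq2's Wald test also called 0. An unadjusted p under 0.05 was reached by 0 in AsPC-1 (24.7% of all miRNAs) and by 1 in PANC-1 (35.8% of all miRNAs), miR-125a-5p, with an LFC of -0.18, and of -0.30 to -0.11 when a library was left out, with a call in 1 of these 6 fits, that without knockdown replicate 1 (adjusted p = 0.0224, edgeR). In median, their LFC was -0.04 after knockdown of AsPC-1 and 0.04 after that of PANC-1. MiR-99a-5p had an LFC of 0.11 in PANC-1 (95% interval -0.07 to 0.29), where let-7c, from the same host gene, had 0.32. For let-7e and its neighbour miR-99b-5p the values there were 0.19 and 0.04.

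The study names let-7 beside other miRNAs that MYC represses, namely miR-15a, miR-16, miR-26a and miR-34a, the last also a target of p53. EdgeR's test called 0 of their 4 guides after knockdown in either line, against 11.4% (AsPC-1) and 22.0% (PANC-1) of all miRNAs. An unadjusted p under 0.05 was reached by 2 in each, beside 24.7% and 35.8%. DESeq2's Wald test called 1 of them in AsPC-1, miR-15a-5p, which was lower, and 0 in PANC-1. MiR-15a-5p had an LFC of -0.48 in AsPC-1 (adjusted p = 0.0764) and -0.32 in PANC-1 (adjusted p = 0.125), and miR-34a-5p, at 1.54 to 6.19 CPM in AsPC-1, had 0.99 (adjusted p = 0.108) and 0.20 (adjusted p = 0.266, edgeR). MiR-26a-5p had LFCs of 0.05 and 0.19 and miR-16-5p had -0.05 and 0.09. AsPC-1 control replicate 1 weighed on these values, and without it the AsPC-1 LFC was -0.21 for miR-15a-5p, 0.16 for miR-16-5p and -0.05 for miR-26a-5p, and miR-34a-5p was DE (LFC 1.34, adjusted p = 0.0220, edgeR). Without AsPC-1 knockdown replicate 2 the LFC of miR-34a-5p was 0.55, and without PANC-1 knockdown replicate 2 that of miR-15a-5p in PANC-1 was -0.17. These 4 had a median of 0.00 in the AsPC-1 comparison and of 0.14 in that of PANC-1.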

How the data were processed

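Small RNA of 12 libraries was grouped by line and treatment from the sample labels. The authors trimmed the 3′ adapter, mapped reads to hg19 with Bowtie (version not given in the sources used here), retained sequences of miRNA length with a perfect match, and deposited raw read counts per miRNA, each summing the most abundant sequence and those with its 5′ end. Reads with another 5′ end are not in these counts, and a miRNA not listed was given 0. The release of the miRNA annotation is not given in the sources used here.

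The members and lists were chosen with earlier results of these data known. All 9 members are named in each comparison, list members where a list has at most 5 or where they passed the threshold. EdgeR 4.0.16 (R 4.3.3) was run on whole tables with filterByExpr (minimum count 10), TMM factors and the quasi-likelihood test, without a replicate block. P-values were two-sided and Benjamini-Hochberg adjusted over all miRNAs tested, with a threshold of 0.05. The SE is the absolute LFC divided by the square root of F. Alternatives were DESeq2 1.42.0, other scalings, no filter, all libraries in 1 fit, the block and leaving out each replicate. The fits were tested on simulated data. The pairing by replicate number was checked by correlating deviations from the group means.

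Depth was 3805084 to 7311783 reads, which puts the floor of 3 counts at 0.410 to 0.788 CPM, for counting error only. Sequences are from RefSeq (GRCh38.p14), with all 9 members matched, and positions from GRCh37 with GENCODE.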

Additional observations from a re-analysis of the deposited data

How the results depend on the processing

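In AsPC-1, 57 miRNAs were DE, 29 with the replicate block and 24 to 102 when a library was left out (102 without control replicate 1, 24 and 31 without knockdown replicates 1 and 3). In PANC-1, 121 were DE, 67 with all 12 libraries in 1 fit, 90 without a filter and 55 to 129 when a library was left out (68 and 55 without knockdown replicates 2 and 3). The interaction gave 2, 10 without a filter and 1 to 25 when a library was left out (25 and 20 without AsPC-1 control replicates 1 and 2, 13 and 5 without PANC-1 control replicates 3 and 1, 1 without AsPC-1 knockdown replicate 1), with 0 members in each. The higher share of calls went from 61.4% to 35.7% in AsPC-1 with all 12 libraries in 1 fit, from 57.9% to 18.2% (totals) and 69.1% (upper quartile) in PANC-1, and from 43.5% to 63.3% between the controls with upper-quartile factors.

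The replicate block called 7 members in PANC-1 and 0 in AsPC-1. Same-numbered libraries correlated at -0.16 to 0.12 in AsPC-1, 0.0293 to 0.14 in PANC-1 and 0.0956 to 0.27 between the controls. Between the controls, 0 other numbers were more alike for each of the replicate numbers. The same held for replicate numbers 1 and 3 in PANC-1 and for replicate number 3 only in AsPC-1. Whether same-numbered libraries share a batch was not tested. Members called in PANC-1 were 4, and also 4 with DESeq2's Wald test. They were 2 with DESeq2 size factors or without a filter and 3 with TMM factors from other miRNAs. Upper-quartile factors or all 12 libraries in 1 fit gave 1, library totals gave 0, and leaving out a library gave 0 to 4.

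The pool's percent in AsPC-1 control and knockdown and PANC-1 control and knockdown was 20.6, 22.9, 12.6 and 14.1 without miR-21-5p and 19.8, 20.8, 7.84 and 9.26 of the TMM-scaled library size. Counting same-seed miRNAs in the pool left each share within its spread, as it had to, since each of them had at most 2 reads in a library.

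Signs changed as follows, and the cause was not tested. In AsPC-1 they changed for miR-98 (0.0027, upper quartile), let-7a (-0.0025) and let-7d (-0.0013, all 12 libraries in 1 fit). Leaving out a library gave -0.0094 to 0.22 for let-7g, -0.046 to 0.018 for let-7b and -0.12 to 0.065 for miR-98. In PANC-1, totals gave -0.0662 for let-7d and -0.0820 for miR-98. Between the controls, upper-quartile factors gave 0.58 for let-7a, 0.83 for let-7c and 0.61 for miR-98, and let-7c had 0.0415 with all 12 libraries in 1 fit and -0.18 to 0.0515 when a library was left out (0.0515 without AsPC-1 control replicate 1). In the interaction, DESeq2 size factors gave 0.0827 for let-7d and 0.0065 for let-7i. Totals gave 0.0167 for let-7a, 0.0493 for let-7c, 0.15 for let-7d, 0.0468 for let-7e, 0.0431 for let-7f, 0.0296 for let-7g, 0.0737 for let-7i and 0.0597 for miR-98. Let-7d ranged from -0.11 to 0.0013 when a library was left out, with 0.0013 and 0.00075 without AsPC-1 knockdown replicate 1 or PANC-1 knockdown replicate 2.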

Other observations

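By a fixed measure of likeness, the miRNAs outside the family whose log2 normalized CPM followed the summed let-7 members most closely over the 12 libraries, among 632 compared, were miR-183-5p (Pearson's r = 0.992), miR-361-3p (0.991), miR-221-5p (0.989), miR-200a-5p (0.989) and miR-4677-3p (0.989). All 12 libraries of both lines enter these values. As 82.8% of all miRNAs tested were DE between the controls of the lines, a difference between the lines alone can give a high r. After the mean of each group was subtracted, miR-183-5p (0.940), miR-26a-5p (0.911) and miR-7-5p (0.895) were most alike. MiR-26a-5p, in which AsPC-1 control replicate 1 was also the lowest of its line (31387 CPM against 38278 to 41943 CPM in the other libraries), is 1 of the MYC-repressed guides listed above.

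Markers of other cell types were also counted, in CPM of the counted reads. The stroma and vessel markers summed to 1508 to 1823 CPM in AsPC-1 controls and 1229 to 1396 CPM in PANC-1 controls, the neuronal pair miR-9-5p and miR-124-3p to 6.72 to 10.1 and 4623 to 4918 CPM, the blood markers to 9.38 to 14.5 and 1.31 to 3.10 CPM, the islet marker miR-375 to 0.619 to 1.82 and 10.3 to 12.1 CPM, and the liver marker to 4.49 to 7.93 and 2.38 to 3.42 CPM. Their part in the results above was not tested.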
